A study of Mus musculus with 15 samples.

Results

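In the mouse colon, 128 of 12370 genes had RNA levels that separated the genotypes completely, so that each of 6 Irf1-/- libraries lay below each of 9 B6 libraries (108 genes) or above each of them (20 genes). These genes were taken from the 12370 genes counted in all 3 deposited tables, with the 15 libraries used once each, and levels are CPM (reads of a gene scaled to the size of its library) after TMM, a correction for library composition. The genotype effect beside each gene is the log2 fold change (log2 FC) of Irf1-/- over B6 in a model with a term for treatment and a term for genotype, from edgeR's quasi-likelihood test with p-values adjusted by Benjamini-Hochberg over all 12370 genes. A gene was called when it differed by 1.5-fold or more and its adjusted p was under 0.01. The separation and this test read the same libraries, so neither is independent evidence for the other.

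The samples were distal colons of B6 mice (C57BL/6 in the labels, C57BL/6J in the study's methods) and of Irf1-/- mutants on a B6 background from The Jackson Laboratory, with 3 mice in each of 5 groups. Untreated mice formed 2 sets of B6 controls and 1 set of Irf1-/- mutants. Control set 1 was deposited together with the treated B6 mice and control set 2 with the untreated Irf1-/- mice. Both sets were pooled as B6 libraries here. Treated B6 and Irf1-/- mice had received AOM (azoxymethane, a DNA-alkylating compound that starts colon tumors, 7 mg/kg) on D1 and DSS (dextran sulfate, which injures the colonic epithelium, 2%) from D8 to D11, and their colons were taken at D26. Mice of the study's tumor model were 8 to 10 weeks old at the start, and neither sex nor litter is given, so B6 mice cannot be taken as littermates of the mutants. Each library held 22237032 to 22840011 reads on the 12370 genes, a factor of 1.027 at most. For pairs within a group, chi-square per degree of freedom over all genes was 8.65 to 42.7, where counting noise alone gives about 1. Libraries of a group thus differed by more than counting noise over all genes together. Spread between mice and spread from library preparation cannot be told apart.

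Irf1 encodes interferon regulatory factor 1, a transcription factor that is induced by interferon gamma and binds interferon-stimulated response elements (ISRE) in the promoters of interferon-inducible genes. Its known targets include the subunits that turn the proteasome into the immunoproteasome, the machinery that loads peptides on MHC class I, and antiviral sensors and effectors. In the gut, such genes are used by epithelial cells as well as by leukocytes. In whole colon tissue, fewer cells of a type and less RNA per cell cannot be told apart.

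The promoters of the genes with lower levels are shown first because sequence was not used to choose them. Promoters were the 250 bases before to 50 bases after each start, from RefSeq on GRCm38.p6, and were searched on both strands for the ISRE core GAAANNGAAA and, separately, for TTCNNNGAA, the core of the gamma-activated site. Of the 108 lower genes, 88 had a promoter in this table and 21 of them (23.9%) held the ISRE core, against 356 of 9791 promoters of all tested genes (3.64%). Among the 45 genes that were also called lower, 15 held it (33.3%), and among the 43 lower genes that were not called, 6 did (14%). None of 15 promoters of the higher genes held it. The gamma-activated core was in 9 promoters of lower genes (10.2%) and in 802 of all (8.19%), and 3 lower genes held both cores. A match is a description of letters and does not show that a factor binds there. Examples from 6 lower genes follow, chosen because they span large and small decreases, with the ISRE core (or its reverse complement) in capitals, each read on the strand of the gene and ending at or before its start.

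Ddx60, chr8:61928043-61928086, plus strand, core 19 to 10 bases before the start: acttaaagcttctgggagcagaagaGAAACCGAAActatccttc
Gbp2, chr3:142620579-142620638, plus strand, core 59 to 50 bases before the start: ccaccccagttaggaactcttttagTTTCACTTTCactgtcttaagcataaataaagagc
Tnfrsf14, chr4:154928107-154928166, minus strand, core 64 to 55 bases before the start: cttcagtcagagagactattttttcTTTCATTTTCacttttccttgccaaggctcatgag
Serpinb9, chr13:33004470-33004529, plus strand, core 46 to 37 bases before the start: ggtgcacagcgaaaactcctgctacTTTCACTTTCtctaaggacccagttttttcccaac
Ctss, chr3:95526740-95526785, plus strand, core 21 to 12 bases before the start: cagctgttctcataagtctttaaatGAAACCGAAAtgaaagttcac
H2-T23, chr17:36032791-36032850, minus strand, core 124 to 115 bases before the start: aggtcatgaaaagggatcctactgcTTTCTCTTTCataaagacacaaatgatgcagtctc

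The core read GAAACCGAAA in both Ddx60 and Ctss, whose decreases were of different size (log2 FC -2.82 and -0.49). The Ddx60 promoter held a further core 53 to 44 bases before the start. No ISRE core was found in the promoters of Psmb8, Psmb10, Tapbp, Nlrp6, Btnl4, Btnl6 or Irf1, which says only that these letters are not in the windows searched.

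Irf1 itself was counted in every library and fell in the mutants without reaching low values. The 9 B6 colons held 128 to 227 CPM (median 155) and the 6 Irf1-/- colons 79.4 to 123 CPM (median 104), from 2882 to 5188 reads in B6 and 1786 to 2769 reads in Irf1-/- colons. The highest mutant, a treated one at 2769 reads and 123 CPM, and an untreated one at 2631 reads and 117 CPM lay close to the lowest B6 library, and the gap between the genotypes was a factor of 1.04. The log2 FC was -0.73 ± 0.10 (adjusted p = 0.000166, edgeR's quasi-likelihood test). Values after ± of a log2 FC are standard errors here. They were derived from the test, as the size of the log2 FC over the square root of its F statistic. The counts are totals over the gene and cannot show which exons remained in the mutant transcript. In untreated libraries alone, the log2 FC was -0.60 (adjusted p = 0.0285), and in treated libraries alone -0.93 (adjusted p = 0.0115), and neither passed the threshold of 0.01. In the fit of all 15 libraries with an interaction, where the groups share 1 estimate of the spread, these adjusted p were 0.0240 and 0.00106.

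More genes were lower than higher in Irf1-/- colons. Separated genes with lower levels made up 0.873% of the genes tested and those with higher levels 0.162%. The test called 73 genes lower (0.59%) and 12 higher (0.097%), and 57 of the 108 lower and 6 of the 20 higher genes were called. Without the fold threshold, an adjusted p under 0.01 was reached by 142 lower genes (1.15%) and 35 higher genes (0.283%), which include 89 of the 108 and 12 of the 20. The median log2 FC was -0.61 over the 108 lower genes and 0.41 over the 20 higher genes, against 0.01 over all genes tested. At least a 2-fold difference was found for 25 lower and 3 higher genes. The gap between the nearest libraries of the genotypes exceeded a factor of 2 for 10 lower genes and no higher gene, and was under 0.05 on the log2 scale for 36 lower and 8 higher genes.

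**Figure D1:**
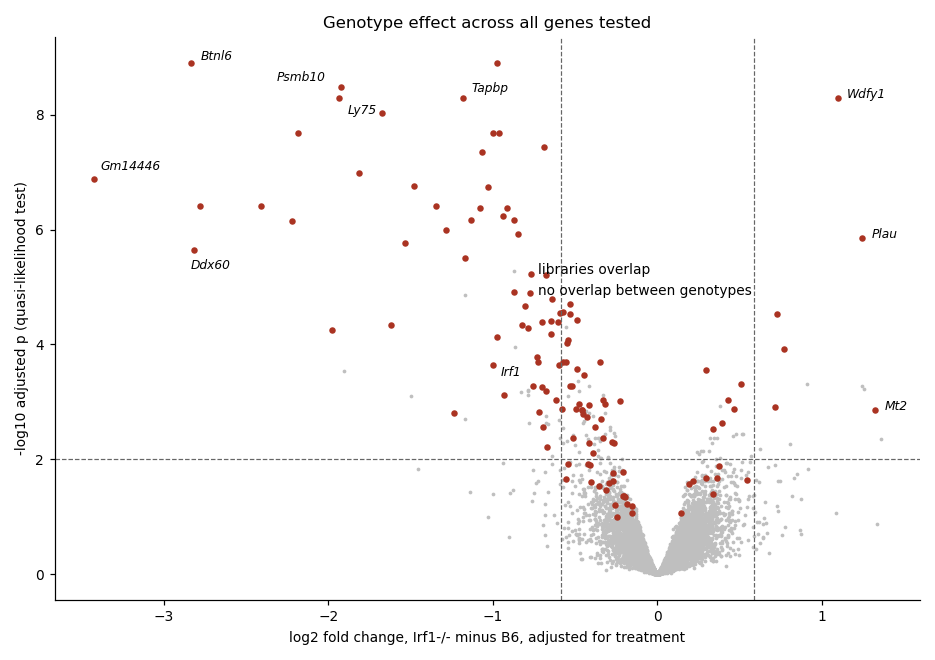
Genotype effect for all 12370 genes: the x axis gives the log2 fold change of Irf1-/- over B6 adjusted for treatment, the y axis the -log10 of the adjusted p, grey points genes whose libraries overlap and red points the 128 genes whose libraries do not. Dashed lines mark a 1.5-fold change and an adjusted p of 0.01. Red points lie mostly to the left, with Gm14446 at -3.42 farthest out, and reach down to adjusted p values of about 0.10.

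The separation is a rule on order, so some genes met it by very little. Just inside were Nr6a1 (lowest B6 library 13.73 CPM, highest Irf1-/- library 13.72 CPM), the claudin gene Cldn2 (115.35 and 115.28 CPM) and the protease gene Tmprss2 (564.5 and 564.0 CPM). Just outside were the carboxylesterase pseudogene Ces2d-ps (178.1 and 178.5 CPM), the ciliary gene Tctn1 (7.22 and 7.23 CPM) and Aim1 (126.1 and 126.2 CPM). The library nearest to the other genotype was often the same: replicate 2 of control set 2 was the lowest B6 library for 38 of the 108 genes, and replicate 2 of the untreated mutants was the highest Irf1-/- library for 27.

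All 4 tested genes of the immunoproteasome list were called lower, and each separated the genotypes. For this and the list counts below, the shares over all 12370 genes were 0.873% separated lower and 0.162% separated higher. Called lower were 0.59% and called higher 0.097%. Psmb8 and Psmb10 encode catalytic subunits that replace those of the constitutive proteasome, and Psme1 and Psme2 the subunits of the PA28 activator. Psmb10 ranged from 58.4 to 94.1 CPM (median 62.4) in B6 and from 15.7 to 20.8 CPM (median 19.2) in Irf1-/- colons, a 3.79-fold decrease (log2 FC -1.92 ± 0.10, adjusted p = 3.27e-09). Even the lowest B6 library was 2.80 times the highest mutant library. Psmb8 ranged from 26.1 to 89.0 CPM (median 36.2) and from 7.50 to 12.4 CPM (median 9.78), a 4.66-fold decrease (log2 FC -2.22 ± 0.19, adjusted p = 7.19e-07). The top B6 values of Psmb8 came from treated mice, at 69.7 ± 24.8 CPM (SD, n = 3), against 32.5 ± 3.95 and 29.6 ± 5.70 CPM in the control sets. Psme2 and Psme1 fell 2.11-fold and 1.92-fold (log2 FC -1.08 ± 0.09 and -0.94 ± 0.08, adjusted p = 4.25e-07 and 5.70e-07). The summed level of the list was 237 to 418 CPM in B6 and 111 to 129 CPM in Irf1-/- colons.

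Within the list of MHC class I and peptide loading, 7 of 22 tested genes separated the genotypes, all lower, and 4 of these were called. The called ones acted in making and loading peptides (Tapbp, Tap2, Erap1) apart from H2-Q2. Tapbp, which encodes tapasin and bridges MHC class I to the peptide transporter, ranged from 209 to 315 CPM (median 231) in B6 and from 102 to 118 CPM (median 112) in Irf1-/- colons (log2 FC -1.18 ± 0.07, adjusted p = 5.18e-09). Tap2, a subunit of that transporter, ranged from 36.4 to 65.6 CPM and from 19.5 to 23.7 CPM (log2 FC -1.13 ± 0.10, adjusted p = 6.74e-07). Erap1, an aminopeptidase that trims peptides in the endoplasmic reticulum, showed a log2 FC of -0.77 ± 0.08 (adjusted p = 5.84e-06). The partner of Tap2, Tap1, overlapped between genotypes (log2 FC -0.49, adjusted p = 0.20), as did the light chain gene B2m (-0.53, adjusted p = 0.066). Among the heavy chain genes, H2-K1 ranged from 649 to 1269.7 CPM (median 714) and from 489 to 635 CPM (median 572), a log2 FC of -0.55 ± 0.12 that missed both thresholds (adjusted p = 0.0121), and H2-T23 and H2-T10 showed log2 FC of -0.39 and -0.42 (adjusted p = 0.00762 and 0.0121). Heavy chain genes are near-identical to each other, so the split of reads among them is uncertain. The list as a whole had a median log2 FC of -0.39 with 17 of 22 values negative. In the fit with an interaction, this median was -0.12 in untreated and -0.63 in treated colons.

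Of 11 tested genes of MHC class II presentation, 1 separated the genotypes, Ctss. It encodes cathepsin S, which cleaves the invariant chain, and ranged from 262 to 328 CPM (median 295) in B6 and from 187 to 227 CPM (median 213) in Irf1-/- colons (log2 FC -0.49 ± 0.06, adjusted p = 3.81e-05, under 1.5-fold). The class II chains H2-Aa and H2-Ab1 and the invariant chain gene Cd74 showed log2 FC of -0.33, -0.26 and -0.30 (adjusted p = 0.40, 0.48 and 0.44). No gene of this list was called, and its median log2 FC was -0.26. In the fit with an interaction, the list median was 0.01 in untreated and -0.55 in treated colons.

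The ISG15 pathway and the antiviral ADP-ribosyltransferases contributed 7 of 11 tested genes, 6 of them called. Uba7, the activating enzyme that charges the ubiquitin-like modifier ISG15, ranged from 38.8 to 65.3 CPM (median 45.8) in B6 and from 13.4 to 18.6 CPM (median 15.3) in Irf1-/- colons, a 3.19-fold decrease (log2 FC -1.67 ± 0.10, adjusted p = 9.34e-09). Herc6, the mouse ligase of that pathway, showed a log2 FC of -0.97 ± 0.12 (adjusted p = 7.33e-05), and the conjugating enzyme gene Ube2l6 overlapped (-0.35, adjusted p = 0.043). The decreases of 4 ADP-ribosyltransferase genes were of similar size, with Parp14 (log2 FC -1.34 ± 0.11), Parp12 (-1.07 ± 0.07), Parp10 (-1.03 ± 0.08) and Parp9 (-0.87 ± 0.07), with adjusted p between 4.50e-08 and 6.74e-07. Parp11 overlapped between the genotypes (-0.05, adjusted p = 0.79). Dtx3l, the ubiquitin ligase that pairs with Parp9, separated at a log2 FC of -0.55 ± 0.07 (adjusted p = 9.53e-05). The summed level was 563 to 793 CPM in B6 and 373 to 454 CPM in Irf1-/- colons, without overlap.

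**Figure D2:**
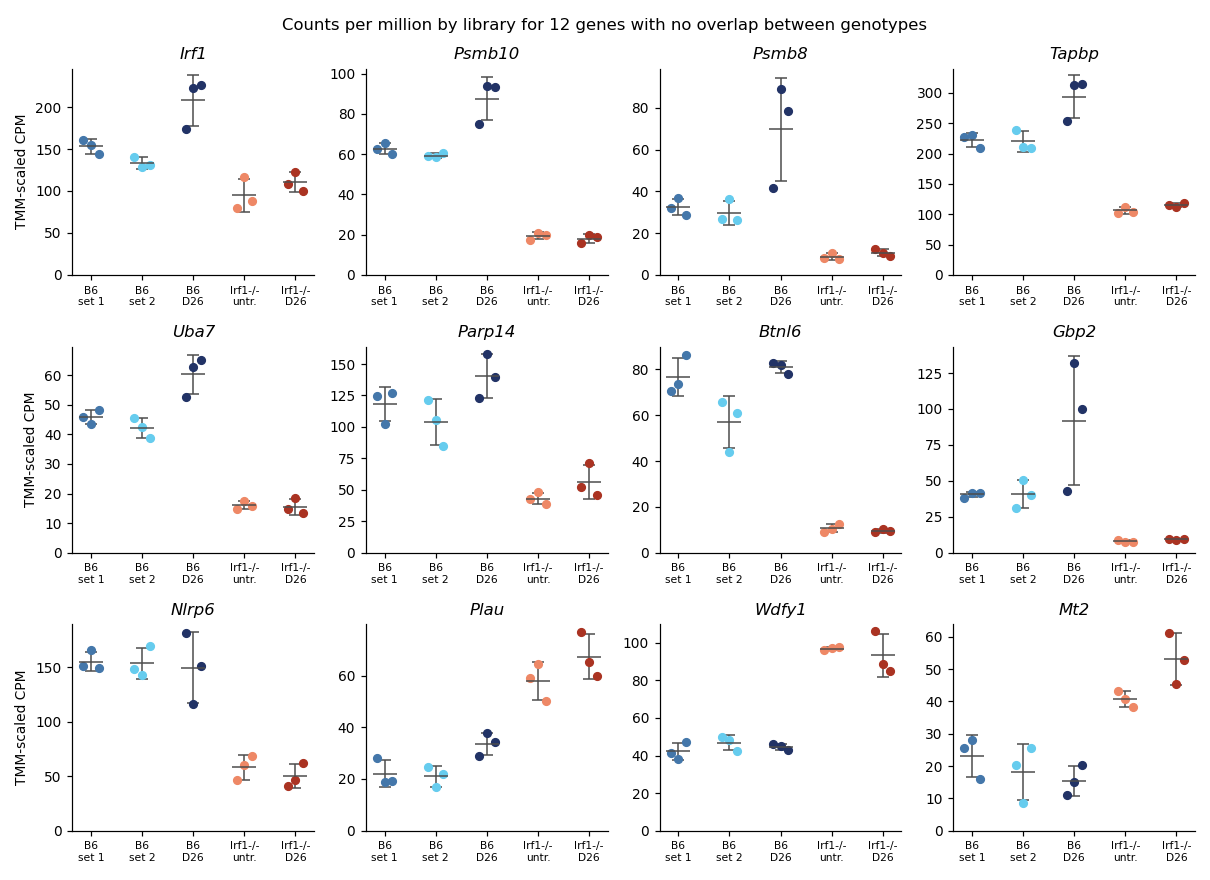
TMM-scaled CPM (y axis, from 0) of 12 separated genes in the 15 libraries, by group on the x axis, with points for mice and a dash with bars for the mean and SD of 3 mice. Irf1 leaves little room between the genotypes (128 and 123 CPM for the nearest libraries), while Psmb10, Btnl6 and Gbp2 leave wide gaps, and Plau, Wdfy1 and Mt2 lie higher in Irf1-/- colons.

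Among 39 tested RNA and DNA sensors and antiviral effectors, 7 separated the genotypes. Ddx60, a helicase of the RIG-I pathway, ranged from 16 to 57.2 CPM (median 24.9) in B6 and from 2.59 to 8.54 CPM (median 4.16) in Irf1-/- colons (log2 FC -2.82 ± 0.26, adjusted p = 2.28e-06). Oasl2, an oligoadenylate synthetase-like gene, ranged from 8.26 to 37.1 CPM and from 2.40 to 7.52 CPM (log2 FC -1.98 ± 0.24, adjusted p = 5.65e-05). The RNA sensor genes Ddx58 (RIG-I) and Ifih1 (MDA5) had similar log2 FC of -0.73 ± 0.10 and -0.70 ± 0.08 (adjusted p = 0.000206 and 4.04e-05). Trim21, a cytosolic antibody receptor, Trim30d and Ifi35 completed the group at -0.70, -0.78 and -0.46 (adjusted p = 0.000545, 5.06e-05 and 0.00141), the last under 1.5-fold. Other genes of the same list overlapped between the genotypes, among them 3 interferon-inducible genes chosen after their values were seen, with log2 FC of -0.89 for Ifit1 (adjusted p = 0.039), -0.16 for Ifit3 (0.49) and 0.01 for Xaf1 (0.96). The list median was -0.30.

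Of 32 tested genes of the IRF, Jak, Stat and Socs families, 2 separated the genotypes, the targeted gene Irf1 and Irf7. Irf7, the factor that amplifies type I interferon, ranged from 26.0 to 79.0 CPM (median 30.2) in B6 and from 11.1 to 23.7 CPM (median 16.8) in Irf1-/- colons (log2 FC -1.23 ± 0.21, adjusted p = 0.00153). It did not pass in untreated (log2 FC -0.85, adjusted p = 0.0715) or treated (-1.75, adjusted p = 0.0190) libraries alone, while in the fit of all 15 libraries with an interaction Irf7 reached adjusted p = 0.191 in untreated and 0.00124 in treated colons. Stat2, Irf9 and Irf8 showed log2 FC of -0.15, 0.22 and -0.15 (adjusted p = 0.47, 0.25 and 0.36). The median of the list was -0.07. Usf1, a helix-loop-helix factor that the study names, separated at a log2 FC of -0.38 ± 0.07 (36.9 to 52.1 CPM in B6 and 30.1 to 35.7 CPM in Irf1-/- colons, adjusted p = 0.00278) without reaching 1.5-fold. In the fit with an interaction, its log2 FC was -0.22 in untreated colons (adjusted p = 0.244). In treated colons it was -0.60 (adjusted p = 0.000216, edgeR's quasi-likelihood test). By qPCR, the study reports that Usf1 rose at D26 in B6 but not in Irf1-/- colons.

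Of 24 tested genes of pyroptosis and necroptosis, 5 separated the genotypes and 4 of these were called. Nlrp6, an inflammasome gene of the gut epithelium, ranged from 117 to 181 CPM (median 151) in B6 and from 41.4 to 68.7 CPM (median 53.1) in Irf1-/- colons, a 2.79-fold decrease (log2 FC -1.48 ± 0.11, adjusted p = 1.77e-07). Gsdmd, which forms the pore of pyroptosis, and Mlkl, which disrupts the membrane in necroptosis, showed log2 FC of -0.65 ± 0.08 and -0.76 ± 0.11 (adjusted p = 3.82e-05 and 0.00052). Casp1, the inflammasome protease, separated at -0.49 ± 0.08 (adjusted p = 0.00132), under 1.5-fold. The adaptor gene Pycard and the kinase gene Ripk3 overlapped (log2 FC -0.10 and 0.01, adjusted p = 0.40 and 0.98). Of the 24 log2 FC, 14 were negative and 10 positive, the latter including Casp4 (0.56, adjusted p = 0.043), which also overlapped. The list median was -0.08.

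Of 15 tested interferon-inducible GTPases, 1 separated the genotypes, Gbp2. It ranged from 31.1 to 132 CPM (median 41.8) in B6 and from 7.30 to 9.68 CPM (median 9) in Irf1-/- colons, a 6.87-fold decrease (log2 FC -2.78 ± 0.22, adjusted p = 3.80e-07). Tgtp2, Gbp6 and Gbp7 were called (log2 FC -1.90, -1.17 and -0.83) although their libraries overlapped. The list median was -0.58. Guanylate-binding protein genes resemble each other closely, so these counts are uncertain.

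Btnl4 and Btnl6, 2 of the 3 tested butyrophilin-like genes of the list, and Btnl5, outside it, separated the genotypes and were called. Butyrophilin-like proteins of gut epithelium are known to support intraepithelial gamma delta T cells. Btnl6 ranged from 44.0 to 86.1 CPM (median 73.7) in B6 and from 8.95 to 12.5 CPM (median 9.87) in Irf1-/- colons, a 7.14-fold decrease (log2 FC -2.83 ± 0.13, adjusted p = 1.24e-09). Btnl4 and Btnl5 showed log2 FC of -1.0 ± 0.06 and -0.96 ± 0.06 (adjusted p = 2.10e-08 for both). Btnl1 overlapped (-0.94, adjusted p = 0.012). The 3 separated genes are neighbours and similar in sequence, so reads may have been shared among them. The list median was -1.0.

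**Figure D3:**
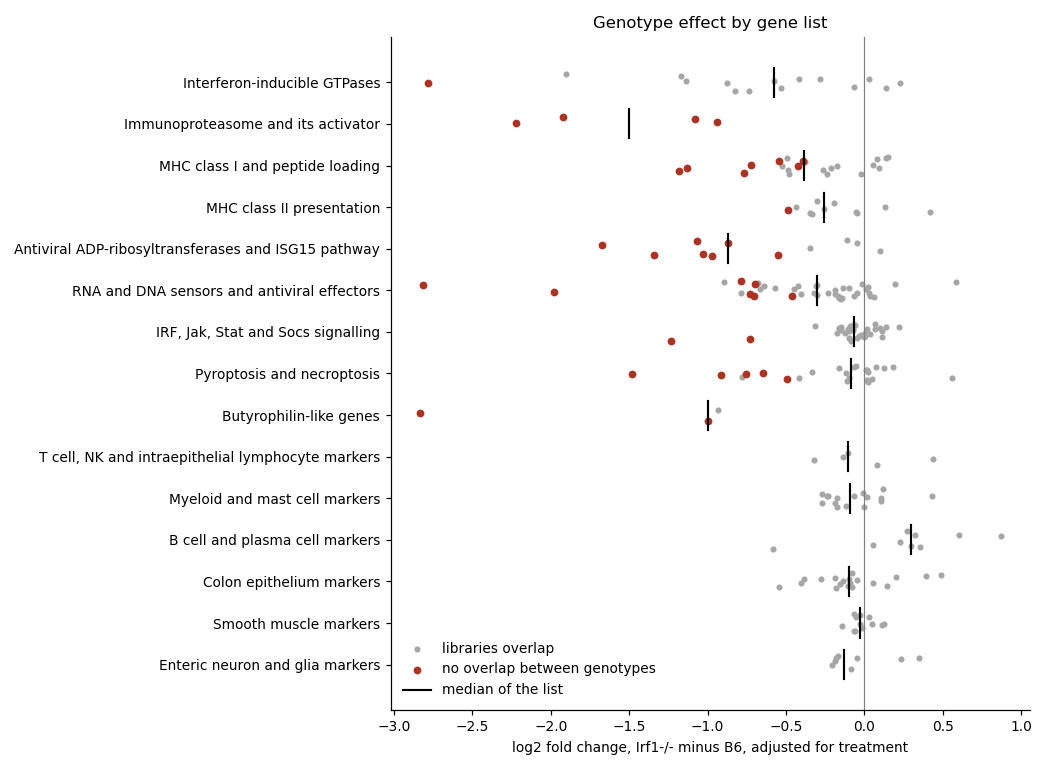
Log2 fold change of Irf1-/- over B6 (x axis) for the tested genes of 9 pathway lists and 6 marker lists (y axis), with red points for genes that separate the genotypes, grey points for the others and a black line at each list's median. Red points are in the pathway lists and absent from the marker lists.

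The pathway lists held 36 of the 108 lower genes and none of the 20 higher genes. They cover a small part of the tested genes and were chosen with earlier results of these data known, so these counts are a description. The other 72 lower genes were described after their values had been seen, except those with the largest decreases. The largest decrease of all was in Gm14446, an Ifit-family gene with close relatives, at 153 to 336 CPM (median 227) in B6 and 6.53 to 38.5 CPM (median 23.8) in Irf1-/- colons (log2 FC -3.42 ± 0.25, adjusted p = 1.32e-07). Upp1, uridine phosphorylase of pyrimidine salvage, ranged from 30.3 to 93.8 CPM (median 45.1) and from 8.55 to 11.4 CPM (median 9.79), a 5.30-fold decrease (log2 FC -2.41 ± 0.19, adjusted p = 3.80e-07). AW112010, an interferon-inducible transcript first annotated as non-coding, fell 4.55-fold (36.5 to 91.1 CPM and 11.1 to 14.3 CPM, log2 FC -2.19 ± 0.14, adjusted p = 2.10e-08). Ly75, the endocytic receptor DEC-205, fell 3.83-fold (53.4 to 78.0 CPM and 11.8 to 22.1 CPM, log2 FC -1.94 ± 0.11, adjusted p = 5.18e-09). Mettl7a2, a methyltransferase-like gene, fell 3.51-fold (29.8 to 60.1 CPM and 8.85 to 14.2 CPM, log2 FC -1.81 ± 0.13, adjusted p = 1.02e-07), with its neighbours Mettl7a3 and Mettl7a1 at log2 FC of -1.53 and -0.60. These 3 genes are near-identical in part, and their reads cannot be fully assigned.

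Several other lower genes encode proteins at the cell surface or in immune signalling. Tnfrsf14, the receptor HVEM, ranged from 12.3 to 24.8 CPM and from 7.47 to 10.5 CPM (log2 FC -1.28 ± 0.11, adjusted p = 1.02e-06). Serpinb9, an inhibitor of granzyme B, showed a log2 FC of -0.68 ± 0.10 (adjusted p = 0.000657), and the value for Nmi, the partner of Ifi35, was -0.85 ± 0.08 (adjusted p = 1.19e-06). Trim14, Trim31 and Trim56, ubiquitin ligases or adaptors of innate immunity, showed log2 FC of -0.62, -0.64 and -0.57. Tlr3, the endosomal sensor of double-stranded RNA, and Il17rc, a subunit of the interleukin 17 receptor, separated with log2 FC of -0.35 and -0.47 (adjusted p = 0.0289 and 0.0011). Genes of epithelial metabolism were present as well. Apob, the lipoprotein gene, stood at a log2 FC of -1.0 ± 0.14 (adjusted p = 0.000226), the sulfotransferase Sult1a1 at -0.93 ± 0.14 (adjusted p = 0.000754) and Gcnt1, which branches mucin-type glycans, at -0.78 ± 0.08 (adjusted p = 1.27e-05). Entpd4, a Golgi nucleotidase gene with a close relative, fell with a gap of 1.68-fold between the nearest libraries (87.8 to 111 CPM and 47.8 to 52.2 CPM, log2 FC -0.98 ± 0.05, adjusted p = 1.24e-09).

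Of the 20 higher genes, 6 were called. Plau, the urokinase plasminogen activator, ranged from 16.7 to 37.6 CPM (median 24.5) in B6 and from 50.1 to 76.8 CPM (median 62.1) in Irf1-/- colons, a 2.37-fold increase (log2 FC 1.25 ± 0.11, adjusted p = 1.41e-06). Wdfy1, an endosomal adaptor gene, ranged from 38.3 to 49.9 CPM (median 44.9) and from 85.0 to 106 CPM (median 96.5), a 2.14-fold increase (log2 FC 1.10 ± 0.06, adjusted p = 5.18e-09) with almost no change between treated and untreated groups. Mt2, a metallothionein, ranged from 8.66 to 28.2 CPM (median 20.2) and from 38.3 to 61.2 CPM (median 44.2), a log2 FC of 1.32 ± 0.22 (adjusted p = 0.00141). In untreated libraries alone it did not pass (log2 FC 0.97, adjusted p = 0.161). Pgap1, an enzyme that remodels GPI anchors, Pde9a, a cGMP phosphodiesterase, and Myo3a, an unconventional myosin, stood at log2 FC 0.77, 0.73 and 0.71 (adjusted p = 0.000118, 2.96e-05 and 0.00121). The other 14 higher genes showed log2 FC of 0.14 to 0.55. They include Il34, a ligand of the receptor Csf1r (9.7 to 13.0 CPM and 14 to 16.6 CPM), and Cnot8, a deadenylase subunit (42.9 to 48.4 CPM and 53.8 to 57.9 CPM).

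**Figure D4:**
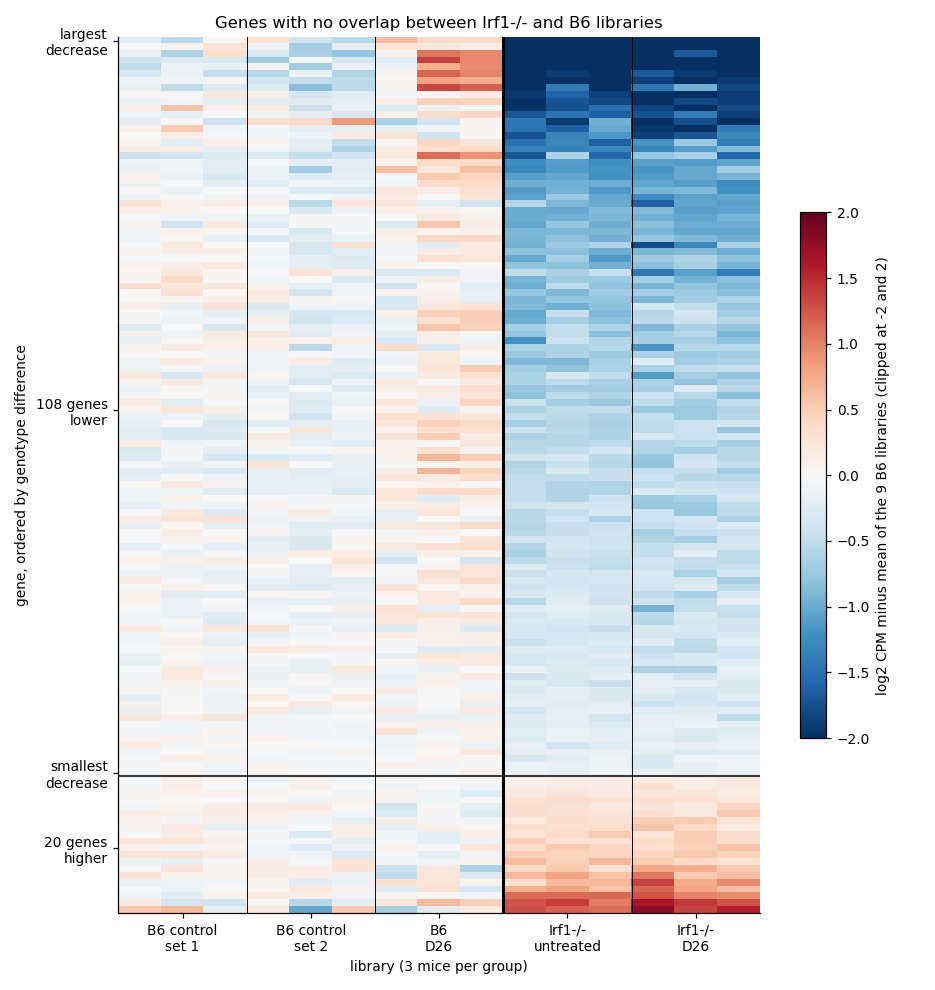
Levels of the 128 separated genes (rows, ordered by genotype difference) in the 15 libraries (columns, by group), as log2 CPM minus the mean of the 9 B6 libraries, clipped at -2 and 2. The 108 lower genes are blue across all 6 Irf1-/- columns and the 20 higher genes red, and some of the most decreased genes are red in treated B6 columns.

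Whether the genotype difference changed with treatment was tested by an interaction. No gene passed for an interaction of genotype with treatment (0 of 12370, 0.0%, edgeR's quasi-likelihood test), and 0 did at an adjusted p under 0.05, while 1870 genes (15.1%) had an unadjusted p under 0.05, among them 34 of the 108 lower genes and 2 of the 20 higher genes. Without replicate 2 of the treated B6 mice, 13 genes passed, 1 of them a separated gene (Tc2n, higher). For 88 of the 108 lower genes the difference was more negative in treated than in untreated colons, with a median interaction of -0.18 against 0.01 over all genes, of which 48.6% had a negative value. The median difference of the lower genes was -0.55 in untreated and -0.74 in treated colons. For 15 of the 20 higher genes the difference was likewise larger in treated colons (median interaction 0.15). These counts and medians use the libraries that chose the genes, with 6 B6 libraries in the untreated and 3 in the treated state, so they are a description and no support for a change with treatment. The smallest interaction p among separated genes belonged to H2-T23, H2-K1, Psmb10 and Ogfr (log2 interaction -0.51, -0.74, -0.62 and -0.41, adjusted p = 0.0781, 0.0809, 0.0809 and 0.084). H2-K1 was at 667 ± 14.8 and 704 ± 17.3 CPM in the untreated B6 sets and 1071 ± 203 CPM in treated B6 colons, but at 582 ± 49.4 and 545 ± 48.5 CPM in untreated and treated Irf1-/- colons (SD, n = 3 each).

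The treated B6 libraries also differed from the others in how counts followed the GC content of genes. The slope of the deviation of a library was 0.141 to 0.307 log2 units per 10% GC in treated B6 and -0.134 to 0.0352 in the other 12 libraries, and treatment of B6 mice and this slope cannot be told apart. After a GC correction of each library, 98 of the 108 lower genes and 13 of the 20 higher genes still separated the genotypes. The interaction was then negative for 89 of the 108 lower genes, with a median of -0.16 against 0.01 over all genes. Genes with an unadjusted interaction p under 0.05 then numbered 841 (6.85%) over all and 25 among the 108.

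**Figure D5:**
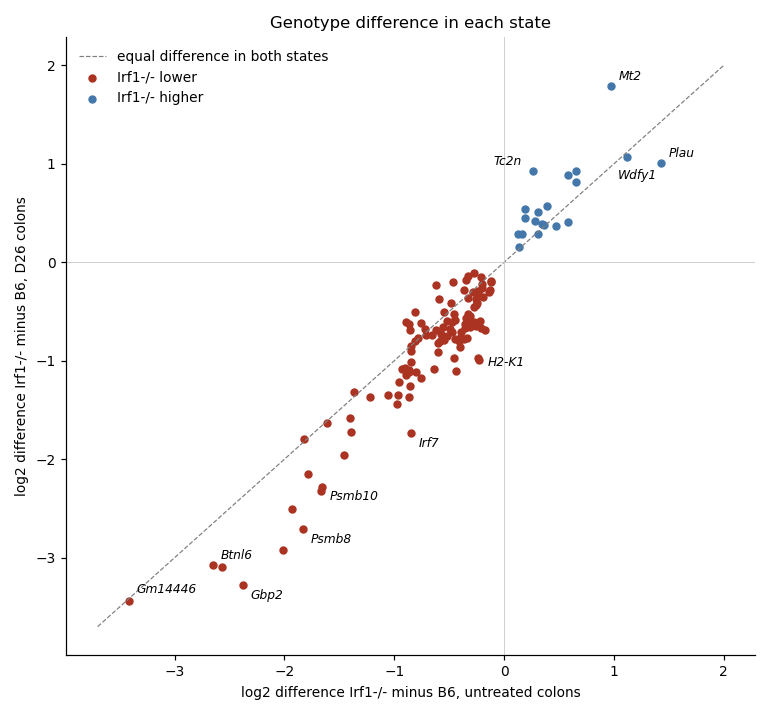
Difference between Irf1-/- and B6 colons in untreated (x axis) and D26 (y axis) mice, both as log2 fold changes, for the 108 lower (red) and 20 higher (blue) genes, with a dashed line of equal difference. More red points lie below the line (88) than above it, with Gbp2, Psmb8 and Irf7 well below and Gm14446 on it.

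Treatment itself, averaged over genotypes, was called to raise 136 genes (1.1%) and to lower 58 (0.469%). Of the 108 lower genes, 5 were called to rise with treatment and none to fall, and of the 20 higher genes none was called. These 5 were Oasl2 (log2 FC of treatment 1.14 ± 0.22, adjusted p = 0.00262), Gbp2 (0.87 ± 0.20, 0.00659), Psmb8 (0.85 ± 0.17, 0.00354), Irf7 (0.81 ± 0.19, 0.00825) and AW112010 (0.59 ± 0.13, 0.00453). Gbp2 was at 40.5 ± 1.98 and 40.7 ± 9.89 CPM in the untreated B6 sets and 91.9 ± 45.1 CPM in treated B6 colons, and at 7.84 ± 0.911 and 9.48 ± 0.318 CPM in untreated and treated Irf1-/- colons (SD, n = 3 each). Treated B6 means were 28.6 CPM for Oasl2, 69.7 for Psmb8, 63.0 for Irf7 and 77.1 for AW112010. The untreated B6 sets were at 11.9 and 10.2, 32.5 and 29.6, 28.5 and 28.1, and 50.2 and 38.1 CPM in that order. Untreated and treated Irf1-/- means were 3.48 and 5.71, 8.74 and 10.6, 15.7 and 19.0, and 11.5 and 13.6 CPM. Without replicate 2 of the treated B6 mice, 92 genes were called for treatment in place of 194.

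Of 22 genes that were called but did not separate the genotypes, 16 were lower and 6 higher. Besides the GTPases, the lower ones included Cd274, the checkpoint ligand PD-L1 (18.9 to 32.0 CPM in B6 and 13.3 to 21.6 CPM in Irf1-/- colons, log2 FC -0.60, adjusted p = 0.0021), and Tnfsf13b, the B cell factor BAFF (log2 FC -0.59, adjusted p = 0.0043). The higher ones included Cd177, a neutrophil surface gene that colon tissue also expresses (74.8 to 236 CPM and 165 to 530.0 CPM, log2 FC 1.25, adjusted p = 0.00052). These 3 were chosen after their values were seen. Of genes named in the study, Dact2, C3 and C4b overlapped and were not called for genotype (log2 FC -0.37, 0.26 and 0.17, adjusted p = 0.051, 0.27 and 0.48). Mcpt1 and Mcpt2 were not among the genes tested. The study names Dact2, C3 and C4b for their response to AOM/DSS, which a genotype effect over both states does not measure. In the fit with an interaction, the Dact2 difference was -0.14 in untreated colons (adjusted p = 0.91) and -0.68 in treated colons (adjusted p = 0.00317). The log2 FC of treatment was 0.90 for C3 and 0.89 for C4b (adjusted p = 0.000433 and 0.000545, edgeR's quasi-likelihood test).

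Genes that fell below the authors' filter of 5 CPM in the Irf1-/- table were outside the rule. Of 47 genes in both B6 tables but not in that table, 6 had each untreated Irf1-/- library below all 9 B6 libraries. Passing the filter in B6 and not in Irf1-/- colons fixes this direction, so the values are a description. Psmb9, the remaining catalytic subunit of the immunoproteasome, ranged from 11 to 28.9 CPM (median 13.0) in B6 and was at 4.03, 8.34 and 4.39 CPM in untreated Irf1-/- colons. Gbp4 was at 9.62 to 23.6 CPM (median 11.7) and at 3.72, 3.77 and 3.90 CPM. Zbp1, a sensor of Z-form nucleic acids, was at 5.07 to 23.8 CPM (median 6.37) and at 1.46, 1.42 and 1.86 CPM. The others were 2210407C18Rik, Apol7a and Sectm1a. Levels here were scaled to library totals, treated Irf1-/- libraries were not in these tables, and no test was made. The filter also left out 83 genes found only in the Irf1-/- table. Whether these were higher in Irf1-/- colons was not examined. The counts of lower and higher genes thus cover only genes in all 3 tables.

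Genes near Irf1 on chromosome 11 were examined by their order in the annotation. Among the 50 genes on either side, 26 were tested, and none separated the genotypes or was called. Over all tested genes, 0.873% separated lower and 0.162% higher, and 0.59% were called lower and 0.097% higher. A set of 26 genes would thus usually hold none, and the count says little about this region. The lowest adjusted p among them was 0.027, for Gm2a (log2 FC -0.31). Beyond this window, Mfap3 (lower, log2 FC -0.20, adjusted p = 0.043) was the 20th and Cnot8 (higher, log2 FC 0.30, adjusted p = 0.000279) the 24th tested gene from Irf1, and both separated the genotypes without being called. Chromosome 11 held 7 of the 128 separated genes, Irf1 included, and 8.21% of the tested genes. Elsewhere, 16 separated genes stood next to another separated gene in the order of tested genes, in 10 pairs that all moved in the same direction. They formed the runs Psme1, Psme2 and Rnf31, Parp14, Dtx3l and Parp9, Btnl4, Btnl5 and Btnl6, Mettl7a1, Mettl7a3 and Mettl7a2, and the pairs Psmb8 and Tap2, and 9030025P20Rik and Gm3435, the last pair higher.

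Marker genes gave no separated and no called gene in any of 7 lists, of which 6 were of cell types and 1 was sex-linked. Over all tested genes, 0.873% separated lower and 0.162% higher, and 0.59% were called lower and 0.097% higher. At these shares, lists of this size would hold few such genes or none. The summed level of 19 epithelial markers was 12687 to 19461 CPM in B6 and 14872 to 15985 CPM in Irf1-/- colons, and that of 12 smooth muscle markers 8888 to 9994 and 8414 to 10766 CPM, so both tissue layers were in the samples. For 16 myeloid and mast cell markers the sums were 677 to 1150.1 and 707 to 1029.7 CPM, and the median log2 FC was -0.09. For 5 of 29 T cell, NK and intraepithelial lymphocyte markers that were tested (Cd8b1, Cd4, Itgae, Il15 and Il15ra) the sums were 45.4 to 60.1 and 50.1 to 58.3 CPM, with a median log2 FC of -0.10, while defining markers such as Cd3e were not among the genes tested. For 9 B cell and plasma cell markers the sums were 253 to 749 and 245 to 464 CPM, and 8 of 9 log2 FC were positive (median 0.30). For 8 neuron and glia markers the sums were 87.4 to 149 and 95.2 to 116 CPM (median -0.13). The 2 untreated B6 sets did not overlap in the B cell sums (614 to 749 CPM in set 1 and 253 to 300 CPM in set 2). They did not overlap in the T cell or neuron sums either. Xist, the only tested gene of the sex-linked list, ranged from 5.97 to 3729 CPM in B6 and from 11.6 to 2319 CPM in Irf1-/- colons (log2 FC 0.08, adjusted p = 0.97). It was at 25.2 and 5.97 CPM in 2 treated B6 colons and at 11.6 CPM in 1 treated Irf1-/- colon. In the other 12 libraries it was at 321 CPM or more. The low values all came from treated colons. The remaining treated colons, at 2328 CPM in B6 and 1802 and 888 CPM in Irf1-/- mice, lay within the untreated range of 321 to 3729 CPM. Sex is not given, and whether the treated groups mixed sexes was not tested. The part of Xist in the treatment and interaction results was not tested either. With log2 Xist as a covariate, 56 of the 57 lower genes and 6 of the 6 higher genes were called.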

How the data were processed

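RNA-seq of 15 mouse colons was analysed from read counts per gene that the authors deposited without normalization, in 3 tables of 12643, 12588 and 12692 genes. Libraries were rRNA-depleted and stranded (Kapa), with 50 bp paired reads, and the submitters' processing notes name TopHat2 2.0.9, Bowtie 1.0.0, featureCounts, edgeR and the build mm9. Each table kept only genes that reached 5 CPM in 3 or more of its libraries (the lowest third-highest CPM was 5.03, 5.03 and 5.01), a filter set by the authors, and 12370 genes were in all 3. The untreated Irf1-/- counts stand in 2 tables with identical values and were used once. The 36 columns of CPM per sample were not used, nor were the log2 fold changes and p-values of the authors' own comparisons. Of the gene names, 19 are numbers, as a spreadsheet makes of some symbols, and none of these is named here.

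Counts were scaled by TMM and fitted by edgeR 4.0.16 in R 4.3.3 with its quasi-likelihood model, with terms for treatment and genotype, and a further fit added their interaction. DESeq2 1.42.0 and limma 3.58.1 gave alternatives. The steps were first tested on simulated data. GC content came from GENCODE M21 (12271 genes), gene order, names and promoters from RefSeq (12305 genes matched). These use GRCm38.p6, so they served for order, GC content and promoters, and promoter coordinates are of that build. Python 3.11.15, numpy 2.4.6, pandas 2.3.3 and matplotlib 3.10.9 were used.

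The separated genes and the gene lists were chosen with earlier results of these data known. Genes named were Irf1, the 12 called and separated genes with the largest decreases and those with the largest increases, up to 5 separated genes per list by p, genes at the edge of the rule, the 4 with the smallest interaction p, those called for treatment and 6 genes of the study's text (Mcpt1, Mcpt2, Usf1, Dact2, C3, C4b). Other genes were named after their values were seen. The design text gives 3 biological replicates per group. Same-numbered libraries of different groups did not deviate together on average (mean correlation -0.004 over 30 pairs, -0.253 to 0.248). Of these pairs, 8 were over 0.1, and the mean for libraries of other numbers was 0.002. This average cannot exclude that some mice were paired. Low counts limited little: the lowest count of a separated gene in a library was 54 reads. Values of some genes are not reported here.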

Additional observations from a re-analysis of the deposited data

How the results depend on the processing

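The rule itself fixes the direction of the 128 separated genes when libraries are left out, so only another scaling could turn it, and neither library totals nor the GC correction did. The counts of 73 lower and 12 higher calls moved most when the fold threshold was dropped. Lower calls numbered 48 in untreated libraries, 39 in treated libraries, 47 without the treated B6 mice and 142 at any fold. Higher calls numbered 22 with DESeq2, 25 with edgeR's likelihood ratio test, 24 at an adjusted p under 0.05, 21 with equal weight of both states, 19 with log2 Xist as a covariate and 35 at any fold. Separated genes (108 lower, 20 higher) numbered 209 and 82 with control set 1 alone, 147 and 77 with set 2 alone, 397 and 249 in untreated libraries, 1804 and 1685 in treated libraries, and 180 and 99 without treated B6 mice, since fewer libraries must be ordered. Genes both separated and called higher numbered 10 with control set 2 alone and 10 in treated libraries. Control set 1 alone gave 2 interaction and 106 treatment calls. For Irf1, adjusted p was 0.0285 (log2 FC -0.601) in untreated libraries, 0.0115 (-0.928) in treated libraries, 0.013 (-0.684) without a treatment term and 0.019 (-0.601) without treated B6 mice, by edgeR's quasi-likelihood test. The fits without treated B6 mice and at any fold were chosen after seeing the data. With 1 library left out in turn, lower calls ranged from 68 to 81, higher calls from 10 to 17, separated genes from 109 to 138 lower and 20 to 42 higher (42 without replicate 3 of the untreated mutants, 33 without treated B6 replicate 2, and 32 without replicate 3 of control set 1, replicate 2 of control set 2 or treated mutant replicate 1), both criteria from 54 to 65 and 6 to 10 (10 without replicate 3 of the untreated mutants), interaction calls from 0 to 13, treatment calls from 92 to 231 (13 and 92 without treated B6 replicate 2), and Irf1 from -0.854 to -0.690. Of the 57 lower genes, 52 were called in all 15 of these fits, as were all 6 higher genes. The replicate block gave 73 lower and 12 higher calls, 56 and 6 of them separated, 0 interaction and 183 treatment calls, an Irf1 log2 FC of -0.741, and moved no count by over 1.5 times. With library totals in place of TMM, 101 of the 108 and 17 of the 20 genes still separated. Over 52 named genes, 28 of 1765 alternative values no longer passed, 7 passed newly and 0 reversed.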
